A study of Mus musculus with 35 samples.

Results

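The BCL2 family genes described here are 10 genes that were chosen by name: the anti-apoptotic genes Mcl1, Bcl2 and Bcl2l1, the pore-forming genes Bax and Bak1, and the BH3-only genes Bcl2l11, Bid, Bbc3, Pmaip1 and Bad. All 10 were among the 11982 gene names of the deposited RNA-seq table. All 10 reached the limit set for testing, an average of 0.5 RPKM, as did 11863 genes in all. RPKM is a read number divided by the length of the transcript and by the size of the library. It is a level per length and so can be set side by side between genes. RNA-seq was done on polyA RNA of hematopoietic stem and progenitor cells (HSPCs) from mouse bone marrow, with 2 wild-type (WT) and 2 JMJD1B-/- libraries. Mice of both genotypes were of the strain 129P2xC57BL/6J. JMJD1B-/- mice carry a gene trap in Kdm3b, the gene of the histone demethylase JMJD1B, and were derived from embryonic stem cells of the 129P2 background, so that the trap is carried by all cells of the animal and not by HSPCs alone. The libraries of a genotype are called biological replicates by the submitters, and the study's methods state a single age range for all of its adult male and female mice. They do not tie age or sex to a library, nor say whether a library came from 1 animal or from a pool. The p-values given below rest on the spread between these libraries. In limma, the spread of a gene is drawn toward a trend over all genes tested, so it is only in part the gene's own.

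Proteins of the BCL2 family decide whether the outer membrane of the mitochondrion is opened during apoptosis. BAX and BAK form the pores through which cytochrome c leaves, MCL1, BCL2 and BCL-XL hold them in check, and the BH3-only proteins either activate the pore formers or occupy the groove of the protective proteins. In the blood system, Mcl1 is known to be required for the survival of hematopoietic stem cells, Bcl2l1 for that of maturing erythroid cells, and Bcl2 for that of mature lymphocytes. Much of the regulation of these proteins occurs after transcription, which RNA levels do not show.

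The targeted gene was read to check the labels. Kdm3b had 31.0 and 24.3 RPKM in WT and 4.00 and 4.63 RPKM in JMJD1B-/-, with the JMJD1B-/- mean at 15.6% of the WT mean (limma, adjusted p = 0.0314). JMJD1B-/- replicate 1 stood apart in depth, with an estimated 6100000 reads against 17500000 to 24600000 in the other 3 libraries, and 3 reads on a transcript of 1 kb equalled 0.491 RPKM in it and 0.122 to 0.171 RPKM in the others. The HSPC marker Kit had 51.6 to 92.7 RPKM in all libraries, while Ly6a had 0.629 to 2.96 RPKM. Markers of other cell types differed between the genotypes. The summed RPKM of erythroid markers was 464 and 708 in WT and 1436 and 2494 in JMJD1B-/-, and that of basophil and mast cell markers was 478 and 554 in WT and 103 and 46.5 in JMJD1B-/-. In bulk RNA, fewer cells of a type and less RNA per cell cannot be told apart. The part of these cell types in the values below was not tested, except where a value is given for it.

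Among the BCL2 family genes, Pmaip1 alone differed between the genotypes at an unadjusted p under 0.05, and it was lower in JMJD1B-/- HSPCs. In limma, a linear model fitted here on log2(RPKM + 0.1) across all genes, 1 of 10 members was lower at this threshold and 0 were higher. Over all genes tested, 6.33% were lower and 3.81% were higher at the same threshold, 10.1% in either direction, so the member count is near the background. After Benjamini-Hochberg adjustment over all genes, 0 members and 5 genes in all, 0.0421% of those tested, had an adjusted p under 0.05 in limma. At that threshold the gene-by-gene test with equal variances gave 0 genes, and at an unadjusted p under 0.05 it gave 0 members in either direction. In 5 members the JMJD1B-/- values were both under the lower WT value, in 2 they were both over the higher WT value, and in 3 the genotypes overlapped. Over all genes tested, 22.7% were under and 20.1% over in this way, 42.9% either way. The 10 members had a median log2 fold change of -0.23, against -0.025 over all genes. Leaving out JMJD1B-/- replicate 1, the library of low depth, gave 0.056 for the members and 0.087 for all genes. Leaving out JMJD1B-/- replicate 2 gave -0.38 for the members and -0.099 for all genes. With 2 libraries a genotype, an exact two-sided permutation test of any single value cannot go below p = 0.333.

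**Figure D1:**
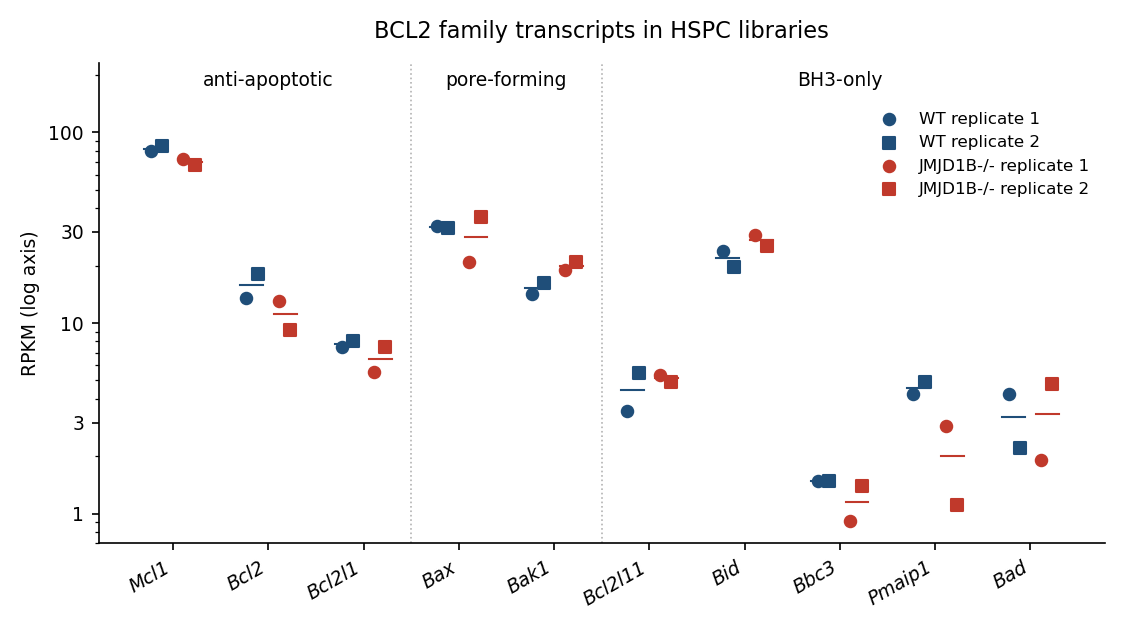
RPKM of the 10 BCL2 family genes on a log axis, with a point for each of the 2 WT and 2 JMJD1B-/- libraries and a bar at the mean of each genotype. By the mean, Mcl1 lies highest and Bbc3 lowest in both genotypes, and on the log axis Pmaip1 shows the widest gap between the genotypes, from 4.25 and 4.92 RPKM in WT to 2.90 and 1.12 RPKM in JMJD1B-/-.

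The members spanned a wide range of levels in WT HSPCs, in the order Mcl1, Bax, Bid, Bcl2, Bak1, Bcl2l1, Pmaip1, Bcl2l11, Bad and Bbc3 from high to low. Mcl1 had a mean of 82.1 ± 3.07 RPKM (SD, n = 2), and 95.7% of the listed genes were lower. Bbc3 had 1.49 RPKM in each WT library, and 10.4% of the listed genes were lower. These shares refer to the listed genes alone, since genes under an RPKM of 1 in every library are not in the table. Neighbours in the WT order were separated in every library except for Bcl2 with Bak1, Pmaip1 with Bcl2l11, and Bcl2l11 with Bad. In JMJD1B-/- HSPCs, Mcl1, Bax and Bid again had the highest means and Bbc3 the lowest. The places of Bcl2 and Bak1 were exchanged, with Bak1 above Bcl2 in both JMJD1B-/- libraries and by 1.80-fold in the mean. Pmaip1 moved from rank 7 in WT to rank 9 in JMJD1B-/-, but its JMJD1B-/- values overlapped those of Bad and Bbc3.

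Of the 3 anti-apoptotic genes, 0 passed the test in limma, at unadjusted p of 0.0915 to 0.355. All 3 had both JMJD1B-/- values under both WT values, as did 22.7% of all genes, and for Bcl2 and Bcl2l1 the separation was narrow. Mcl1, whose short-lived product guards against BAK, had 79.9 and 84.2 RPKM in WT and 72.6 and 67.1 RPKM in JMJD1B-/-. Its genotypes did not overlap, and the spread within a genotype was small at SDs of 3.07 and 3.88 RPKM. Its log2 fold change was -0.23 with a 95% interval of -0.63 to 0.16 (limma, unadjusted p = 0.208, adjusted p = 0.670).

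Bcl2, the founding member of the family, had 13.6 and 18.1 RPKM in WT and 13.0 and 9.21 RPKM in JMJD1B-/-. The lowest WT library and the highest JMJD1B-/- library lay close together, and the JMJD1B-/- mean was 70.0% of the WT mean. On the log2 scale the difference was -0.52 with an SE of 0.27 (limma, unadjusted p = 0.0915, adjusted p = 0.570). Without JMJD1B-/- replicate 1 it was -0.76, and without JMJD1B-/- replicate 2 it was -0.27. The lowest adjusted p of Bcl2 over 13 alternatives was 0.0633. The value of Bcl2 stands beside a lower level of several markers of stem and progenitor cells in the same JMJD1B-/- libraries, among them Cd34 with 42.9 and 43.5 RPKM in WT and 20.9 and 11.7 RPKM in JMJD1B-/-, whose part in it was not tested.

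Bcl2l1, the gene of BCL-XL and its short pro-apoptotic splice form, had 7.47 and 8.03 RPKM in WT and 5.51 and 7.45 RPKM in JMJD1B-/-. WT replicate 1 and JMJD1B-/- replicate 2 differed by little, and the low value was that of JMJD1B-/- replicate 1. Bcl2l1 had a log2 fold change of -0.27 with an SE of 0.27 (limma, unadjusted p = 0.355). The table gives 1 value per gene and does not separate the long and short forms. The erythroid marker sums given above were higher in the same JMJD1B-/- libraries, and their part in the value of Bcl2l1 was not tested.

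The pore-forming genes did not share a direction. Bax, the effector that moves from the cytosol to the mitochondrion, had 32.2 and 31.4 RPKM in WT and 20.8 and 35.7 RPKM in JMJD1B-/-. The WT libraries were alike, and the JMJD1B-/- libraries lay on either side of them. Its log2 fold change was -0.22 with a 95% interval of -0.85 to 0.41, and it became 0.17 when JMJD1B-/- replicate 1 was left out. When JMJD1B-/- replicate 2 was left out it became -0.61. The direction for Bax thus rests on the library of lowest depth, in which the estimated reads per kilobase of transcript were 127 against 564 to 773 in the others.

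Bak1, the gene of BAK, which resides on the mitochondrion, had 14.2 and 16.2 RPKM in WT and 19.0 and 20.9 RPKM in JMJD1B-/-. Both JMJD1B-/- libraries were above both WT libraries, and the SD was 1.35 RPKM in WT and 1.32 RPKM in JMJD1B-/-. The JMJD1B-/- mean was 132% of the WT mean, with a log2 fold change of 0.39 and an SE of 0.20 (limma, unadjusted p = 0.0909, adjusted p = 0.570). It was between 0.30 and 0.48 when any 1 library was left out, and Bak1 was not called under any of the 13 alternatives.

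**Figure D2:**
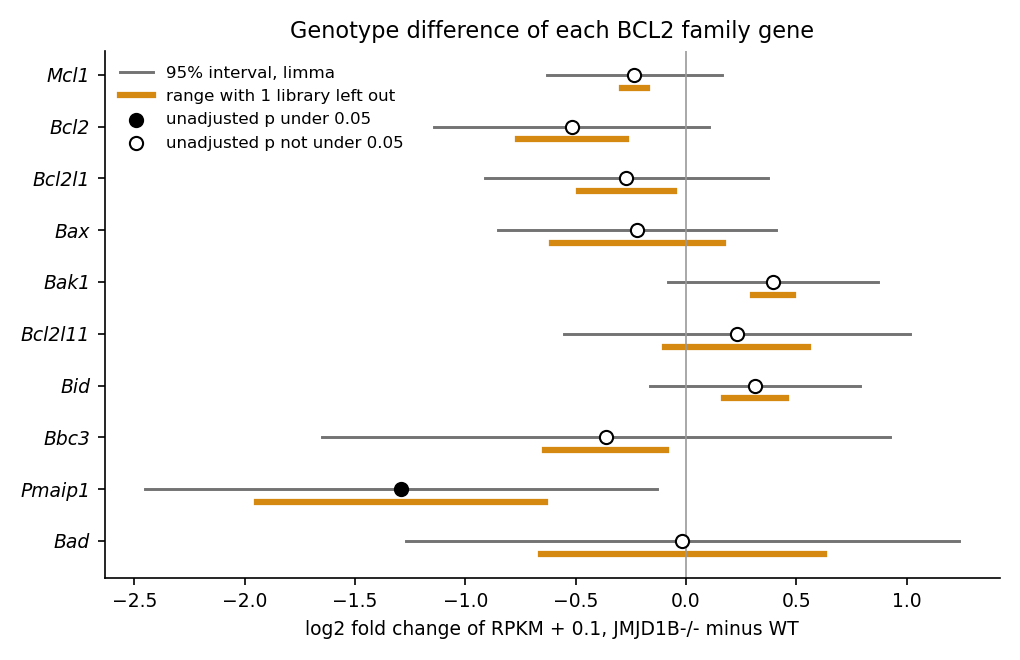
Log2 fold change of RPKM + 0.1 between JMJD1B-/- and WT HSPCs for each BCL2 family gene, with the limma 95% interval in grey and the range of the value when 1 library is left out in orange. The interval of Pmaip1, from -2.45 to -0.13, is the 1 interval that leaves out 0, and the orange ranges of Bax, Bcl2l11 and Bad cross 0.

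Of the 5 BH3-only genes, Pmaip1 was lower at an unadjusted p under 0.05 and the other 4 did not pass. Pmaip1, the gene of NOXA, a p53 target whose product binds MCL1, had 4.25 and 4.92 RPKM in WT and 2.90 and 1.12 RPKM in JMJD1B-/-. Both JMJD1B-/- libraries were below both WT libraries, and the JMJD1B-/- libraries differed from each other more than the WT libraries did. The JMJD1B-/- mean was 43.8% of the WT mean, and the log2 fold change was -1.29 with an SE of 0.49 (limma, unadjusted p = 0.0334, adjusted p = 0.452). Pmaip1 was low in number of reads, with an estimated 17.7 and 23.5 reads per kilobase of transcript in JMJD1B-/- against 74.4 and 120.9 in WT. These read numbers are not corrected for depth, which was lowest in JMJD1B-/- replicate 1, so they do not give the size of the difference.

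The direction of Pmaip1 was the same under all 13 alternatives, but its call was not. Most of these alternatives could not have turned the direction. Those that alter only the filter or the variance keep the log2 fold change at -1.29. Another pseudocount or a missing library cannot turn it either, because both JMJD1B-/- values were under both WT values. Only scaling of the libraries could have done so. Pmaip1 had an unadjusted p under 0.05 in 5 of the 9 alternatives with all 4 libraries. The unadjusted p in limma was 0.114 without WT replicate 1, 0.176 without WT replicate 2 and 0.0766 without JMJD1B-/- replicate 2. Scaling of the libraries also ended the call, at an unadjusted p of 0.054 under median-ratio scaling and 0.0666 under quantile normalization in limma, while the log2 fold changes were -1.28 and -1.05. Its log2 fold change was -0.64 when JMJD1B-/- replicate 2 was left out and -1.94 when JMJD1B-/- replicate 1 was, so that the size of the difference rests on the library in which Pmaip1 was lowest. Trp53, the gene of p53 itself, had 26.7 and 26.3 RPKM in WT and 19.2 and 43.0 RPKM in JMJD1B-/-, on either side of the WT values (limma, unadjusted p = 0.753).

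Bid, whose product links death receptors to the mitochondrion once caspase-8 has cut it, was the most abundant BH3-only gene, with 24.0 and 19.7 RPKM in WT and 29.0 and 25.2 RPKM in JMJD1B-/-. Its genotypes did not overlap, with a log2 fold change of 0.31 and a 95% interval of -0.16 to 0.79 (limma, unadjusted p = 0.167). Casp8, the gene of that caspase, differed in the other direction, as given with the caspases.

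Bcl2l11, the gene of BIM, a target of FOXO3, had 3.46 and 5.49 RPKM in WT and 5.37 and 4.92 RPKM in JMJD1B-/-. The JMJD1B-/- values lay between the WT values. The log2 fold change was 0.23 with an SE of 0.34, and it was -0.094 without WT replicate 1. Foxo3 had 28.1 and 22.4 RPKM in WT and 25.2 and 30.4 RPKM in JMJD1B-/-, and it did not pass the test (limma, unadjusted p = 0.513).

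Bbc3, the gene of PUMA, another p53 target, had 1.49 RPKM in each WT library and 0.921 and 1.39 RPKM in JMJD1B-/-. The separation of the genotypes was narrow, and the value of JMJD1B-/- replicate 1 stood for an estimated 5.63 reads per kilobase of transcript. For Bbc3 the log2 fold change was -0.36 with a 95% interval of -1.65 to 0.93, so a difference of a size like that of Pmaip1 was not excluded at this depth.

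Bad, a sensitizer that is silenced by phosphorylation when growth factors are present, had 4.24 and 2.22 RPKM in WT and 1.91 and 4.78 RPKM in JMJD1B-/-. Libraries of the same genotype differed more than the genotypes did. Its log2 fold change was -0.016 with a 95% interval of -1.27 to 1.24.

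The members of each role were added up as a description, with no test. The summed RPKM of Mcl1, Bcl2 and Bcl2l1 was 101 and 110.4 in WT and 91.1 and 83.8 in JMJD1B-/-. Mcl1, which did not pass the test, made up 76.3% to 80.1% of this sum in every library. The sum of Bax and Bak1 was 46.4 and 47.6 in WT and 39.9 and 56.7 in JMJD1B-/-, which lay on either side of the WT values. Bak1 made up 30.7% and 33.9% of it in WT and 47.8% and 36.9% in JMJD1B-/-, and so a larger share in both JMJD1B-/- libraries. The sum of the BH3-only genes was 37.4 and 33.8 in WT and 40.1 and 37.4 in JMJD1B-/-, and Bid made up 58.3% to 72.3% of it. The share of Pmaip1 in the BH3-only sum was 11.4% and 14.5% in WT and 7.23% and 2.98% in JMJD1B-/-.

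**Figure D3:**
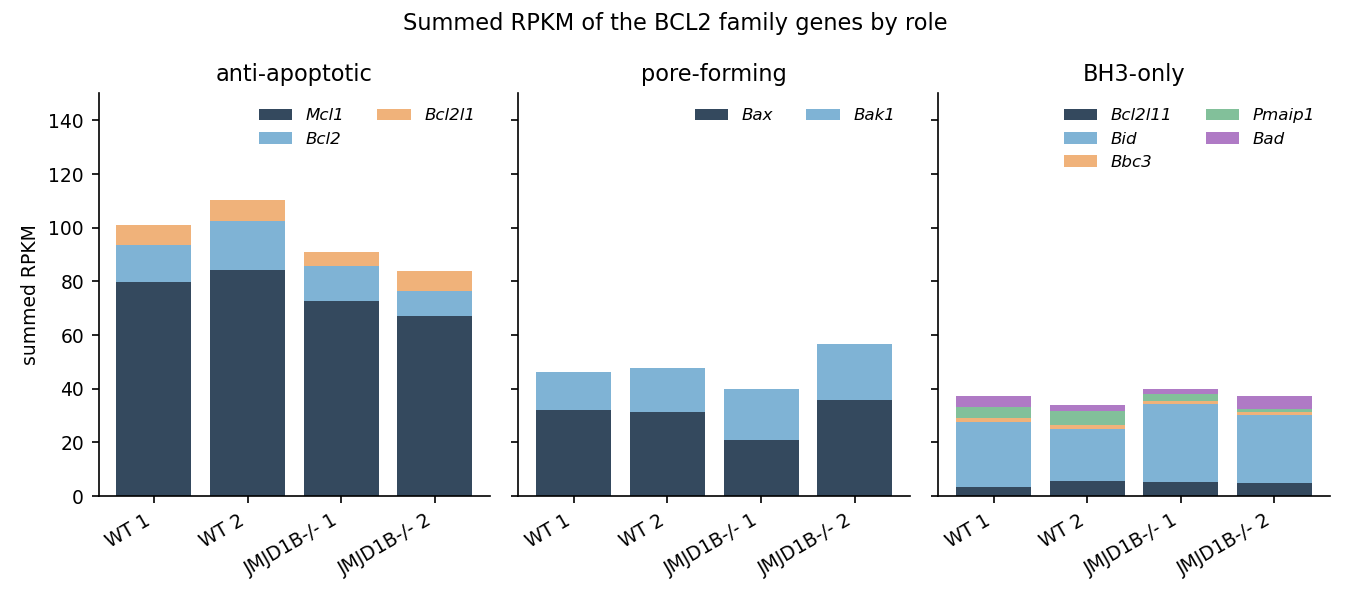
Summed RPKM of the anti-apoptotic, pore-forming and BH3-only genes in each of the 4 libraries, with the part of each gene in colour and the same axis in the 3 panels. The anti-apoptotic bars are shorter in both JMJD1B-/- libraries, at 91.1 and 83.8 RPKM, than in the WT libraries, at 101 and 110.4 RPKM, and Mcl1 and Bid fill most of their panels.

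Ratios between members of the same library do not change when a library is multiplied by a factor, though quantile normalization can change them, and they were taken as a description with no test. The anti-apoptotic sum was 2.70 and 3.26 times the BH3-only sum in WT and 2.27 and 2.24 times in JMJD1B-/-. The anti-apoptotic sum over the pore-forming sum was 2.17 and 2.32 in WT and 2.28 and 1.48 in JMJD1B-/-, so only JMJD1B-/- replicate 2 lay outside the WT values by a clear distance. Mcl1 over Pmaip1, the protective protein and its BH3-only partner, was 18.8 and 17.1 in WT and 25.0 and 60.1 in JMJD1B-/-. Both JMJD1B-/- values of this ratio were higher, and the JMJD1B-/- libraries were far apart. Bcl2 over Bax was 0.422 and 0.576 in WT and 0.624 and 0.258 in JMJD1B-/-, with the JMJD1B-/- values on either side. Bcl2l1 over Bcl2l11 was 2.16 and 1.46 in WT and 1.03 and 1.52 in JMJD1B-/-, and these overlapped.

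Other genes of the BCL2 family were listed with 9 of 16 names in the table, of which 2 were higher and 0 lower in JMJD1B-/- at an unadjusted p under 0.05, against 3.81% and 6.33% of all genes. Both were genes of the A1 group, anti-apoptotic genes known from myeloid and lymphoid cells. Both were under 1 RPKM in the WT libraries and so are in the table only through the JMJD1B-/- libraries, where they were high, which makes their values a description. Bcl2a1a had 0.716 and 0.459 RPKM in WT and 6.36 and 1.19 RPKM in JMJD1B-/-, with a log2 fold change of 2.10 (limma, unadjusted p = 0.0357, adjusted p = 0.469). Bcl2a1b had 0.821 and 0.903 RPKM in WT and 6.26 and 1.55 RPKM in JMJD1B-/-, with a log2 fold change of 1.75 (limma, unadjusted p = 0.0368, adjusted p = 0.471). The third A1 gene in the table, Bcl2a1d, had 1.07 and 0.306 RPKM in WT and 6.54 and 1.01 RPKM in JMJD1B-/-, overlapped between the genotypes and did not pass (limma, unadjusted p = 0.0734). It was named after its values were seen. These genes are near-identical copies among which reads may be shared, so they are uncertain as separate genes.

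The A1 values rest on JMJD1B-/- replicate 1, and with a pseudocount of 1 the log2 fold change of Bcl2a1a was 1.34. Without that library, the log2 fold change was 0.94 for Bcl2a1a and 0.78 for Bcl2a1b, and neither passed the test. The same library had the highest values of the T cell marker Cd3g, with 0.444 and 0.474 RPKM in WT and 11.7 and 1.66 RPKM in JMJD1B-/-. The macrophage marker Emr1 was highest there too, with 5.05 and 1.06 RPKM in WT and 13.0 and 1.61 RPKM in JMJD1B-/-. So was the granulocyte marker Ngp, with 2.15 and 0.454 RPKM in WT and 4.78 and 1.63 RPKM in JMJD1B-/-. Both overlapped between the genotypes, and the sums of their lists, given with the markers below, were not highest in that library. The summed RPKM of 8 T and NK cell markers was 20.1 and 25.6 in WT and 47.4 and 13.8 in JMJD1B-/-, none was at 0 in any library, and 2 were higher and 1 was lower at an unadjusted p under 0.05, with 3.81% and 6.33% over all genes. Cd3g, 1 of the 2 higher, is listed only through the JMJD1B-/- libraries, where it was high. Cd3d, Cd247 and Cd8a are listed only through JMJD1B-/- replicate 1, where they had 2.70, 4.90 and 2.03 RPKM. Part of the high sum of that library thus comes from the rule of listing, and the sum is a description. The part of such cells in the A1 values was not tested.

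Genes that regulate the BCL2 family, among them p53, FOXO and STAT factors, NF-kB subunits and the enzymes that mark MCL1 for degradation, were in the table with 22 of 23 names. Of these, 3 were lower and 0 higher in JMJD1B-/- at an unadjusted p under 0.05, beside 6.33% and 3.81% of all genes, and the median log2 fold change was -0.045. Rel, an NF-kB subunit, had 5.19 and 4.94 RPKM in WT and 2.62 and 1.35 RPKM in JMJD1B-/- (log2 fold change -1.38, limma unadjusted p = 0.0124). Stat3 had 23.3 and 21.7 RPKM in WT and 15.2 and 15.4 RPKM in JMJD1B-/- (log2 fold change -0.56, limma unadjusted p = 0.0228). Pim1, a kinase that acts downstream of STAT factors and phosphorylates BAD, had 41.2 and 49.1 RPKM in WT and 35.7 and 28.8 RPKM in JMJD1B-/- (log2 fold change -0.49, limma unadjusted p = 0.0449). None of the 3 had an adjusted p under 0.05, and each lost its call when either WT library was left out, with unadjusted p of 0.0788 to 0.273. Pim1 also lost it without JMJD1B-/- replicate 2, where limma gave an unadjusted p of 0.133.

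**Figure D4:**
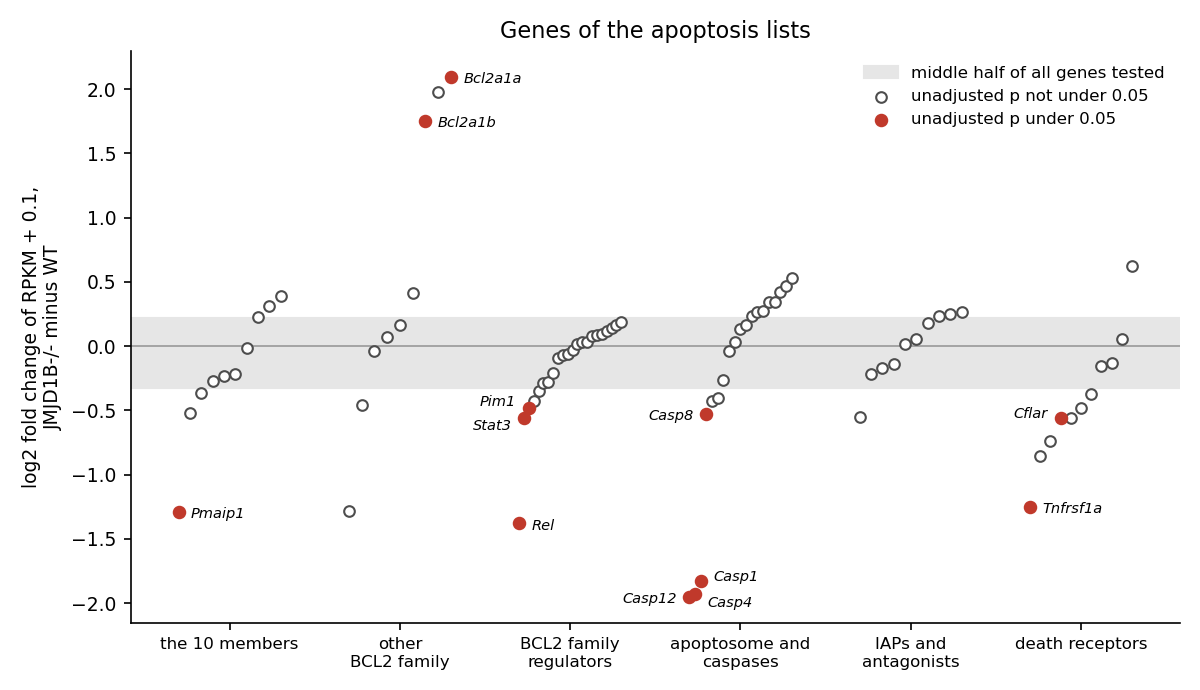
Log2 fold change of RPKM + 0.1 between JMJD1B-/- and WT HSPCs for the 10 members and for 5 further lists of apoptosis genes, each gene a point ordered by its value, with the span between the quartiles of all genes tested in grey, from -0.33 to 0.22. Filled points have an unadjusted p under 0.05 in limma and are named, and most of these lie below 0, with Bcl2a1a and Bcl2a1b above.

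Downstream of the mitochondrion, all 19 genes of the list of the apoptosome, caspases and their partners were in the table, and 4 were lower and 0 higher at an unadjusted p under 0.05, where the shares over all genes were 6.33% and 3.81%. Casp1, Casp4 and Casp12 were 3 of the 4, and these belong to the inflammatory caspases rather than to the apoptosome. Casp1 had 7.89 and 9.40 RPKM in WT and 3.56 and 1.55 RPKM in JMJD1B-/- (log2 fold change -1.83, limma unadjusted p = 0.00311). Casp4 had 8.80 and 5.89 RPKM in WT and 1.18 and 2.77 RPKM in JMJD1B-/- (log2 fold change -1.93, limma unadjusted p = 0.00391). Casp12 had 2.19 and 2.42 RPKM in WT and 0.438 and 0.618 RPKM in JMJD1B-/- (log2 fold change -1.95, limma unadjusted p = 0.0117). In each of the 3 both JMJD1B-/- values were under both WT values, as in 22.7% of all genes. Casp12 was under 1 RPKM in both JMJD1B-/- libraries and so is listed only through WT, where it was high, which makes its value a description and leaves 3 lower genes of the list without it. Its value in JMJD1B-/- replicate 1 is under the 0.491 RPKM that 3 reads on 1 kb stand for in that library, and with a pseudocount of 1 its log2 fold change was -1.12. Without WT replicate 1 the unadjusted p was 0.0594 for Casp4 and 0.114 for Casp12, and without WT replicate 2 it was 0.153 for Casp12.

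Casp8, the initiator that cuts BID, had 36.5 and 35.0 RPKM in WT and 29.6 and 20.8 RPKM in JMJD1B-/- (log2 fold change -0.52, limma unadjusted p = 0.0475). It did not pass without either WT library or without JMJD1B-/- replicate 2, at an unadjusted p of 0.144 to 0.187. Apaf1, the scaffold of the apoptosome, had 20.8 and 18.2 RPKM in WT and 16.2 and 13.3 RPKM in JMJD1B-/-, and Cycs, the gene of cytochrome c, had 30.1 and 33.6 RPKM in WT and 37.6 and 43.2 RPKM in JMJD1B-/-. Neither passed the test, and these 2 genes were chosen for their place in the pathway after their values were seen. The median log2 fold change of the list was 0.13, so that more genes of it had higher than lower values even though those that passed were lower.

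The inhibitors of apoptosis and their antagonists were all in the table, and 0 of 10 passed at an unadjusted p under 0.05 in limma, which is near the 10.1% of all genes that passed in either direction. The most abundant were Birc6, a large inhibitor of caspases, with 47.8 and 51.1 RPKM in WT and 47.7 and 55.5 RPKM in JMJD1B-/-, and Htra2, a mitochondrial protease that relieves the inhibition, with 40.4 and 46.4 RPKM in WT and 29.5 and 65.4 RPKM in JMJD1B-/-. Birc6 overlapped between the genotypes, and Htra2 was lowest and highest in the JMJD1B-/- libraries.

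Of the genes of the death receptor pathway, 11 of 12 were in the table, 2 were lower and 0 were higher at an unadjusted p under 0.05 (6.33% and 3.81% of all genes), and the median log2 fold change was -0.48. Tnfrsf1a, a receptor of TNF, had 8.51 and 9.47 RPKM in WT and 3.14 and 4.39 RPKM in JMJD1B-/- (log2 fold change -1.25, limma unadjusted p = 0.00344). It kept an unadjusted p under 0.05 in 12 of the 13 alternatives, with 0.0506 without WT replicate 2. Cflar, the gene of the caspase-8 inhibitor cFLIP, had 15.8 and 13.1 RPKM in WT and 9.61 and 9.91 RPKM in JMJD1B-/- (log2 fold change -0.56, limma unadjusted p = 0.0396). Without a WT library its unadjusted p was 0.0901 to 0.277. None of the 11 genes called in the 5 further lists had an adjusted p under 0.05 in limma. Over the 9 alternatives with all 4 libraries they passed the unadjusted threshold in 5 to 9 each, and with median-ratio scaling the unadjusted p was 0.0545 for Bcl2a1a, 0.0558 for Bcl2a1b, 0.0641 for Pim1 and 0.0794 for Casp8 in limma. For Bcl2a1a, Bcl2a1b and Casp12, listed only through the genotype where they were high, these results are a description.

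**Figure D5:**
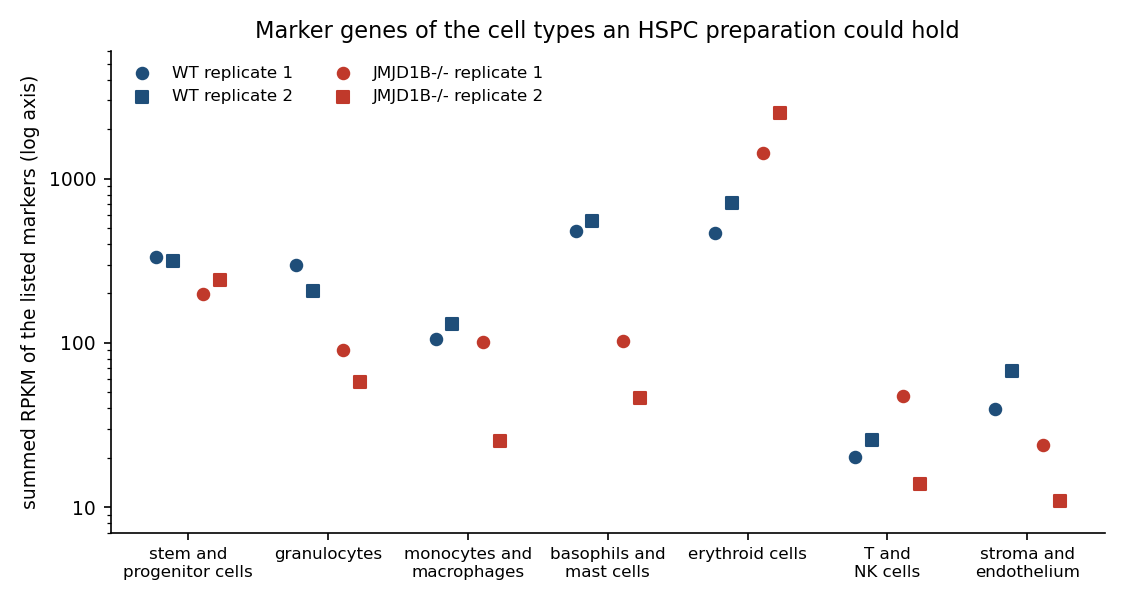
Summed RPKM of marker genes of 7 cell types on a log axis, with a point for each library. Erythroid sums are higher in both JMJD1B-/- libraries, at 1436 and 2494 against 464 and 708 in WT, the summed levels of granulocyte markers and of basophil and mast cell markers are lower, and those of T and NK cells are highest in JMJD1B-/- replicate 1. In the T and NK cell sum, Cd3d, Cd3g, Cd247 and Cd8a are listed only through JMJD1B-/- libraries, where they were high.

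The counts of cell type markers stand against 6.33% lower and 3.81% higher over all genes at the same threshold. Of 11 markers of stem and progenitor cells, 5 were lower and 0 higher in JMJD1B-/- at an unadjusted p under 0.05, and their summed RPKM was 333 and 314 in WT and 198 and 242 in JMJD1B-/-. Of the 9 granulocyte markers tested, 6 were lower and 2 higher, with sums of 298 and 206 in WT and 91.1 and 57.5 in JMJD1B-/-. Mpo, an enzyme of early granules, took 131 and 79.0 RPKM of these sums in WT and 21.4 and 12.1 RPKM in JMJD1B-/-. The 2 higher markers were genes of later granulocytes, S100a8 with 7.24 and 4.74 RPKM in WT and 8.71 and 10.6 RPKM in JMJD1B-/-, and S100a9 with 2.79 and 1.41 RPKM in WT and 8.01 and 10.8 RPKM in JMJD1B-/-. The granulocyte sums cover the 11 in the table, of which WT replicate 2 and JMJD1B-/- replicate 1 each had 1 at 0. Monocyte and macrophage markers had sums of 106 and 131 in WT and 101 and 25.3 in JMJD1B-/-, with 3 of 6 lower. Basophil and mast cell markers were lower in 6 of 7, and erythroid markers were higher in 8 of 9. No marker of these 3 lists was at 0 in any library. Between the JMJD1B-/- libraries, the sums of granulocyte, of basophil and mast cell, and of monocyte and macrophage markers were lower in replicate 2. The sums of T and NK cell and of stroma and endothelium markers were lower there too, while those of stem and progenitor and of erythroid markers were higher. Pmaip1, Rel and Casp1 were lower in replicate 2, and Casp4 and Tnfrsf1a were lower in replicate 1. The part of those cells in these values was not tested. Of the B cell markers only Cd79b was in the table, with 3.28 and 1.99 RPKM in WT and 1.22 and 0.631 RPKM in JMJD1B-/-. Markers of stroma and endothelium summed to 39.7 and 67.2 in WT and 23.9 and 10.9 in JMJD1B-/-, with 2 of 5 lower, of which Col1a2 is listed only through WT, where it was high.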

How the data were processed

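The authors deposited 1 table of RPKM values per gene for the 4 RNA-seq libraries (TruSeq kit, polyA RNA), and 1 appears to have been added to every value, since the lowest deposited value is 1. RPKM was taken as the deposited value minus 1. The submitters' processing notes name Novoalign, TopHat2 and the build mm9 without saying which served the RNA-seq. The counting program and annotation are not given in the sources used here. Values of 42 names with more than 1 entry were averaged. Genes under an RPKM of 1 in every library are not listed in the table. The 31 ChIP-seq and input samples were not used here. The depth is not in the table and was estimated from whole-number ratios between libraries of genes under 3 RPKM, and then from gene lengths, 20 of which gave the same depth within 0.2%. Floors and read numbers from it cover counting error only. Whole reads could be fitted for 98 of 1634 such genes, so no count test was run.

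Genes that averaged 0.5 RPKM or more were tested with limma 3.58.1 in R 4.3.3 on log2(RPKM + 0.1), with a variance trend, two-sided, and with Benjamini-Hochberg adjustment. Fold changes are on this scale, which understates the change of low genes. "Passed" and "called" refer to an unadjusted p under 0.05. Python 3.11.15 with pandas 2.3.3, numpy 2.4.6 and matplotlib 3.10.9 served for the rest. The members and lists were chosen with earlier results of these data known. The rule for named genes took the 10 members, Kdm3b, and from each list the genes that passed, at most 8 by lowest p, or the 2 of highest mean RPKM where none passed. Of the marker genes it took, Cd34, Cd3g, Cd79b, Mpo, S100a8 and S100a9 are given with values, Col1a2 by name, and the others only within counts and sums. Trp53, Foxo3, Apaf1, Cycs, Bcl2a1d, Kit, Ly6a, Emr1, Ngp, Cd3d, Cd247 and Cd8a were named beside them after their values were seen. Alternatives were pseudocounts of 1 and 0.01, no filter, a filter at an average of 1 RPKM, median-ratio scaling, quantile normalization, limma without a trend, a test of each gene alone with equal variances, a replicate block and leaving out each library. A fit with 1 library left out keeps 1 library of a genotype, so its p-value holds no spread within that genotype. Names of the lists that are not in the table were not analysed here.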

Additional observations from a re-analysis of the deposited data

How the results depend on the processing

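Of 130 values of the members, 10 genes under 13 alternatives, in limma and the gene-by-gene test, 116 kept their direction and their side of the unadjusted threshold of 0.05, 7 lost the threshold, 2 passed it and 5 changed sign. Many of these values could not change sign. Alternatives that alter only the filter or the variance keep the fold change. Where the genotypes do not overlap, another pseudocount or a missing library cannot turn it. The kept directions, here and for the other genes below, are thus not separate checks of direction. With 1 library left out, the log2 fold change ran from -0.61 to 0.17 for Bax, -0.094 to 0.56 for Bcl2l11, -0.66 to 0.62 for Bad, -0.051 to 0.17 for Birc6 and -0.55 to 0.59 for Htra2, and it changed sign within these ranges. Quantile normalization turned Bad to 0.12 and Htra2 to -0.037. Of 650 values of the 50 other genes that the rule for named genes took, marker genes given only within counts included, 542 kept direction and threshold, 103 lost the threshold, 1 passed it and 4 changed sign. The count of members that were lower was 1, and it was 0 with median-ratio scaling (Pmaip1 unadjusted p = 0.054 in limma), quantile normalization (0.0666), limma without a trend (0.0502) and the gene-by-gene test, and 0 to 2 when 1 library was left out. The causes were not tested. The median of the members ran from -0.38 to 0.056 over the left-out libraries. Over all genes, 751 were lower and 452 higher, against 750 and 630 with median-ratio scaling and 714 and 666 with quantile normalization. With 1 library left out, 190 to 1777 were lower and 127 to 1367 higher, where a lone library is assumed to vary like those of the other genotype. The 5 genes at an adjusted p under 0.05 became 18 and 3 with pseudocounts of 1 and 0.01, 3 with a mean RPKM of at least 1, 1 under each of median-ratio scaling and quantile normalization, 0 in limma without a trend and in the gene-by-gene test, and 1 to 989 with 1 library left out. With the replicate block they were 256, and 1 member, Pmaip1, was lower (unadjusted p = 0.0226 in limma). The deviations of same-numbered libraries had a correlation of -0.054 over 11863 genes. This value cannot tell whether same-numbered libraries shared a litter, a sex or a day of preparation, and the labels do not say so. At the depth of JMJD1B-/- replicate 1, Bbc3 rests on an estimated 5.63 reads per kilobase.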
